A study of Mus musculus with 12 samples.

Results

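The BCL2 family decides at the mitochondrial outer membrane whether a cell lives or dies by the intrinsic route. Here 10 of its genes were followed by name in eosinophils, out of the 53801 genes of the count table: the pro-survival genes Bcl2, Bcl2l1, Mcl1, Bcl2a1b and Bcl2a1d, the pro-apoptotic effectors Bax and Bak1, and the BH3-only genes Bcl2l11, Bid and Bbc3. The members were chosen by their symbols, matched to the Ensembl identifiers of the table. No cut on a measured value was used, but earlier results of these data were known when they were chosen. All 10 were found, and all 10 passed the filter on low counts in every comparison. In the annotation of the table (GRCm38) the pro-survival genes lie at chr1:106538178-106714274 (Bcl2, minus strand), chr2:152780668-152831728 (Bcl2l1, minus), chr3:95658788-95663176 (Mcl1, plus), chr9:89199209-89207827 (Bcl2a1b, plus) and chr9:88723285-88731914 (Bcl2a1d, minus). Bax lies at chr7:45461697-45466898 and Bak1 at chr17:27019810-27029009, both on the minus strand, and Bcl2l11 at chr2:128126038-128162547 (plus), Bid at chr6:120891930-120916853 (minus) and Bbc3 at chr7:16308393-16318205 (plus). Each count covers all exons of a gene.

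RNA of eosinophils from bone marrow and blood was sequenced as 12 libraries, 3 for each of 4 groups: control bone marrow, Atg5-knockout bone marrow, control blood and Atg5-knockout blood. Every mouse carried eoCre, a Cre recombinase knocked into the eosinophil peroxidase locus Epx, together with an Il5 transgene expressed from a Cd3d promoter, which raises interleukin-5 and with it the number of eosinophils. The Atg5-knockout mice were in addition homozygous for floxed Atg5, a gene that autophagosomes need to form, and the controls carried eoCre and the transgene alone. No age and no further treatment of these mice was given. Both tissues came from 3 mice of each genotype, and the eosinophils were enriched with magnetic beads by removing other leukocytes. Before the beads, blood was spun over a density medium and its red cells were lysed with water, whereas bone marrow was flushed and filtered. Tissue and preparation thus cannot be told apart in any comparison of blood with bone marrow. Since all mice have the Il5 transgene, no library shows eosinophils at an ordinary level of interleukin-5, and since all carry eoCre, one Epx allele is altered throughout.

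By way of background, the pro-survival proteins hold the effectors BAX and BAK in check, and the BH3-only proteins, which are raised or activated by stress, bind the pro-survival proteins or activate the effectors directly. Freed BAX and BAK form pores in the outer membrane, cytochrome c leaves the mitochondrion, and caspases are switched on. Eosinophils are short-lived, and interleukin-5 is known as their main survival cytokine.

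The libraries held between 18885052 and 30270166 counts. The eosinophil markers were present in all libraries, at 8.04 to 9.10% of counts in control and 8.68 to 10.2% in Atg5-knockout bone marrow, and at 2.24 to 4.05% and 1.80 to 2.85% in blood. Red cell genes took 14.6% of the counts of control blood replicate 1 against 0.138 to 1.42% in the other 11 libraries. For some of the differences below, but not for all, values without this library are given beside those with it. Between tissues, the 10 markers of proliferating cells went from 0.147 to 0.172% in control bone marrow to 0.00578 to 0.0118% in control blood, and from 0.179 to 0.221% to 0.00438 to 0.0109% in Atg5-knockout mice. The 14 neutrophil markers held 2.37 to 3.38% and 2.82 to 3.22% in control and knockout bone marrow, and 1.29 to 1.72% and 1.20 to 2.18% in blood. In Atg5-knockout blood replicate 1, alone among the libraries, the neutrophil markers (2.18%) exceeded the eosinophil markers (1.80%). The T cell and natural killer cell lists were at 0.000932 to 0.00120% and 0.000244 to 0.000420% in control bone marrow, where Cd3e had no count, and at 0.00217 to 0.0185% and 0.0258 to 0.0528% in control blood. In Atg5-knockout mice they were at 0.00101 to 0.00121% and 0.000273 to 0.000569% in bone marrow and at 0.00369 to 0.0321% and 0.0404 to 0.0469% in blood. The B cell, monocyte, basophil and mast cell, and platelet lists each took at most 0.290% in any library. The part of these differences in the values below was not tested, and in bulk RNA fewer cells of a type and less RNA per cell cannot be told apart. Levels of a gene across libraries are given as CPM, counts scaled to a common library total with TMM factors, which set the bulk of genes equal between libraries. Atg5 itself had 42.4 ± 2.61 CPM (SD, n = 3) in control and 31.9 ± 1.74 in Atg5-knockout bone marrow, a log2 difference of -0.44 (SE 0.11, edgeR adjusted p = 0.156), and 48 ± 9.61 and 47.2 ± 9.12 in blood, where the difference was -0.0080 (SE 0.22). These counts cover the whole gene, so transcripts that lack the floxed part still count, and the blood values neither show nor refute the deletion. The study itself measured Atg5 by quantitative PCR and ATG5 by immunoblot in eosinophils of both tissues. It also cites its earlier work that Atg5-knockout eosinophils lack autophagy.

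Mcl1, whose short-lived protein restrains BAK and BAX, was by far the most abundant of the 10 genes. Levels of different genes were compared per length, as counts per kilobase of exon scaled to the same total in each library (TPM). On that scale Mcl1 had 584 ± 28.4 TPM (SD, n = 3) in control bone marrow, 506 ± 66.4 in Atg5-knockout bone marrow, 1024 ± 461 in control blood and 1510.0 ± 159 in Atg5-knockout blood. It stood above each of the other 9 genes in 12 of 12 libraries. Bak1, an effector, came next in both bone marrow groups with 114 ± 8.52 TPM in control and 109.8 ± 9.44 in Atg5-knockout mice, and it exceeded Bax, the other effector, in 12 of 12 libraries. In control bone marrow the libraries of Bak1, Bcl2a1d, Bax, Bcl2a1b and Bid overlapped from one to the next, whereas Bcl2l1, Bbc3 and Bcl2 followed each other without overlap. In blood both Bcl2a1 members moved up to lie directly under Mcl1 among the 10. In control mice they had 174 ± 81.3 TPM for Bcl2a1d and 139 ± 65.7 for Bcl2a1b. Their libraries overlapped each other there, and Bcl2a1b also overlapped Bak1. TPM carries no TMM factor, and on this scale control blood replicate 1 fell within the range of bone marrow for both Bcl2a1 members. It also divides by all exon bases, although reads in exons shared with another gene were counted for neither. Bak1, Bcl2 and Bax share 357, 558 and 192 exon bases in this way, and Bcl2a1b and Bid do so as well. How far this lowers their TPM was not tested.

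The lowest levels belonged to Bcl2, the founding survival gene of the family, and Bcl2l11, which encodes BIM. Bcl2 had 7.27 ± 0.925 TPM and Bcl2l11 7.05 ± 1.23 in control bone marrow, and their libraries overlapped. In control blood the order was turned without overlap, with 9.92 ± 5.55 TPM for Bcl2l11 and 3.83 ± 0.510 for Bcl2, while in Atg5-knockout blood they overlapped again at 8.49 ± 1.74 and 5.23 ± 1.76. Bcl2l1, the gene of BCL-XL, lay between at 32.8 ± 5.27 TPM in control bone marrow. It was above Bbc3, the gene of PUMA, in 8 of 12 libraries, and below it in the 3 libraries of Atg5-knockout blood and in 1 library of control blood.

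**Figure D1:**
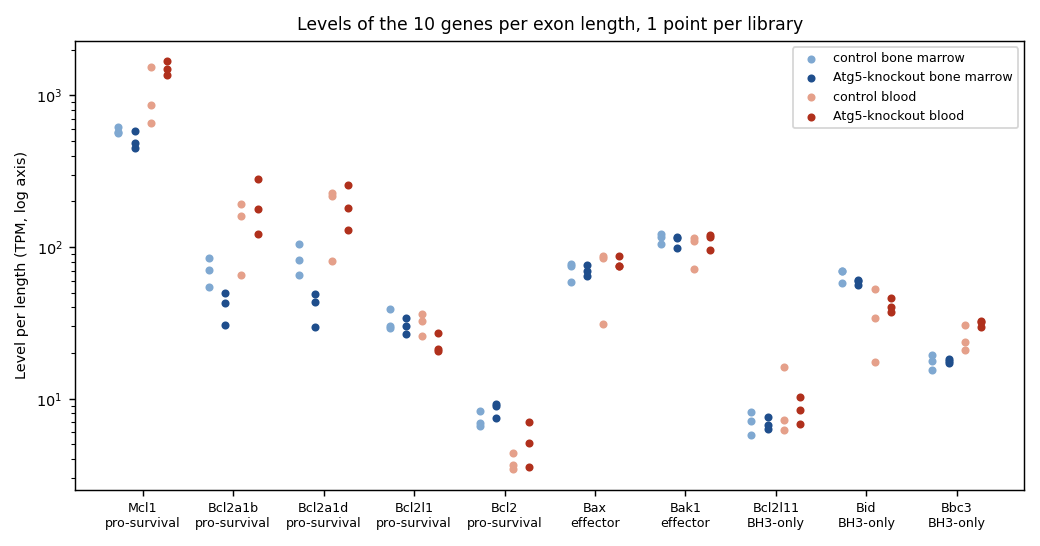
Level of each of the 10 genes per exon length, in TPM on a log axis, with 1 point for each of the 12 libraries and 1 colour for each of the 4 groups. Mcl1 stands above the other 9 genes in every library, Bcl2 and Bcl2l11 lie lowest, and both Bcl2a1 genes are higher in blood than in the bone marrow of the same genotype except for the lowest control blood library.

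As a share of the summed TPM of the 10 genes, Mcl1 made up 57.7, 52.6 and 56.3% in control bone marrow and 54.7, 56.4 and 59% in Atg5-knockout bone marrow. In blood it made up 66.7, 67.7 and 55.9% in control and 71.1, 68.8 and 67.2% in Atg5-knockout mice. The 5 pro-survival genes together held 73.5 to 74.6% in control bone marrow and 68 to 73.5% in Atg5-knockout bone marrow, below every blood library, where they held 82.6 to 87.3% and 85.6 to 90.05%. The share of Bax and Bak1 ran the other way, from 16.7 to 18.1% and 18.3 to 22.1% in bone marrow to 8.74 to 12.6% and 6.84 to 10.04% in blood. Bcl2l11, Bid and Bbc3 held 8.43 to 8.70% and 8.18 to 10.3% in bone marrow and 3.96 to 4.76% and 3.12 to 4.34% in blood. The TPM of Mcl1 over that of Bax and Bak1 together was 2.91 to 3.45 in control and 2.56 to 3.22 in Atg5-knockout bone marrow, and 4.42 to 7.74 and 7.08 to 9.83 in blood. These shares describe RNA and depend on the exon lengths of the annotation, and they say nothing of protein. They also cover the 10 genes only. Pmaip1, a further BH3-only gene, had 25.9 ± 5.04 TPM in control and 21.5 ± 2.72 in Atg5-knockout bone marrow. In control and Atg5-knockout blood it had 225 ± 71.1 and 351 ± 189 TPM, more than Bcl2l11, Bid or Bbc3. The pro-survival copy Bcl2a1a is left out as well, so the balance of the whole family is not given by these shares.

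**Figure D2:**
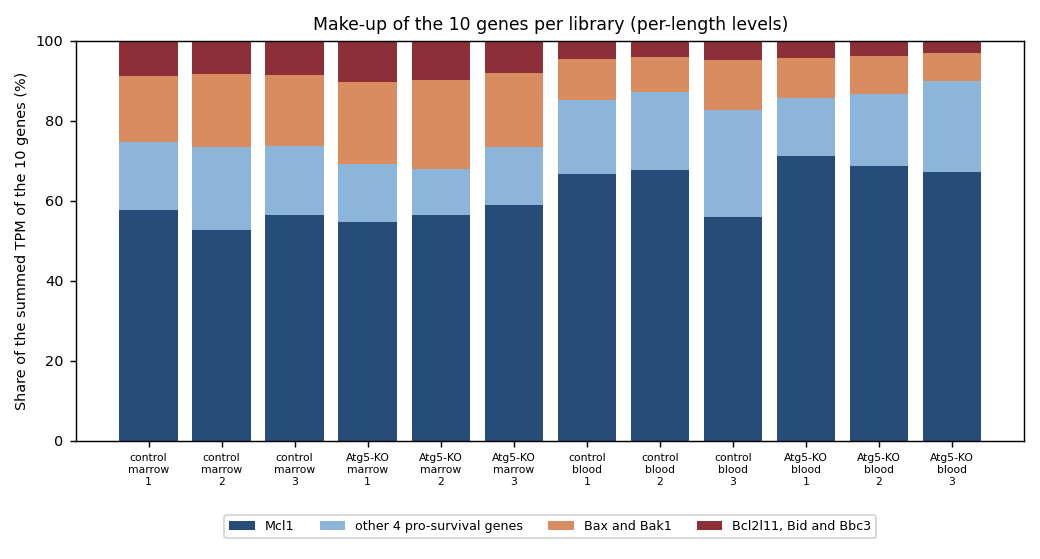
Share of the summed TPM of the 10 genes, in percent, taken by Mcl1, the other 4 pro-survival genes, the 2 effectors and the 3 BH3-only genes, with 1 bar for each library. The pro-survival share is at most 74.6% in the 6 bone marrow libraries and at least 82.6% in the 6 blood libraries.

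Bcl2a1b and Bcl2a1d need a word on their sequences, since mice hold several near-identical copies of this gene, whose product A1 is an NF-kappaB target known for protecting granulocytes. Their copy Bcl2a1a lies on the same chromosome at chr9:88956900-88962419 on the plus strand, and each of the 3 has 2 exon blocks. Over the 516 coding bases of the GENCODE M39 transcripts, Bcl2a1b and Bcl2a1d differed at 6 bases (98.8% identical), Bcl2a1a and Bcl2a1d at 7 (98.6%) and Bcl2a1a and Bcl2a1b at 11 (97.9%). The stretch of 90 coding bases with the most differences is the start of the coding sequence, from coding base 1 to 90, shown 5′ to 3′ with the 6 positions at which the 3 genes are not all alike in capitals.
Bcl2a1a: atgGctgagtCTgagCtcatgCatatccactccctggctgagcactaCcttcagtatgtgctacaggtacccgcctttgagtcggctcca
Bcl2a1b: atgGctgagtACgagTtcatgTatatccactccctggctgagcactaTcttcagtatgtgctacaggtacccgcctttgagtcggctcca
Bcl2a1d: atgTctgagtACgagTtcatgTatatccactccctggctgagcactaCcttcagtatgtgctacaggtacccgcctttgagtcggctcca
Reads were 100 bases long. Of all 100-base windows of each transcript, 69.1% of Bcl2a1b, 45.0% of Bcl2a1d and 56.5% of Bcl2a1a occurred in none of the other Bcl2a1 transcripts, so many reads of these genes match several copies exactly, and with no option for multiple hits such reads are not counted. In addition, 401 of the 817 exon bases of Bcl2a1b are shared with the model Gm29094 on the same strand, which had 0 counts in the 12 libraries, and reads within an overlap of this kind were assigned to neither gene. The level of each copy, and how the reads are split between them, is therefore uncertain, and the sum of Bcl2a1a, Bcl2a1b, Bcl2a1c and Bcl2a1d is given beside them.

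The upstream sequences of the 3 copies are shown because their levels are compared side by side below. The pieces, from RefSeq promoters on GRCm38.p6, are 100 bases each in the direction of the gene. They end at the same letters, which for Bcl2a1d are directly before its first exon in the count table, and the letters AGGAAGT, a sequence of the kind bound by ETS factors such as PU.1, are in capitals.
Bcl2a1a, chr9:88956756-88956855, plus strand: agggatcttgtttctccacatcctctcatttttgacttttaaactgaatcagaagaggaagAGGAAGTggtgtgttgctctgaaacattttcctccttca
Bcl2a1b, chr9:89199065-89199164, plus strand: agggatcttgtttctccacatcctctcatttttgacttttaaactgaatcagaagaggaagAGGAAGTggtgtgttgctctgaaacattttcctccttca
Bcl2a1d, chr9:88731915-88732014, minus strand: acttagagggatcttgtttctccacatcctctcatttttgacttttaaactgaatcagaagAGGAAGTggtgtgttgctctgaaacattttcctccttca
The pieces of Bcl2a1a and Bcl2a1b were identical, and both held the letters GAGGAA 2 times, whereas Bcl2a1d held them 1 time. Searched on both strands of the windows from 250 bases before to 50 after each RefSeq start, AGGAAGT was present for Bcl2a1b, Bcl2a1d and Bak1 and for none of the other 7 members. Over all genes it was present for 10.7% of 27025, and in 9.35% of all 32851 windows. Bcl2a1b and Bcl2a1d are near-identical copies and so are not separate cases. The letters TTCNNNGAA, as bound by STAT factors, were in 8.30% of all windows and in no window of a member. The kappaB consensus was in 8.46% of all windows and in 1 of 3 windows each of Bcl2l1 and Bbc3.

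The tissue comparison asked how these genes differ between eosinophils still in the bone marrow and those in the blood, and 4 of the 10 were higher in blood of control mice: Mcl1, Bcl2a1b, Bcl2a1d and Bbc3. None was lower at this threshold. For comparison, 34.2% of the 13669 genes tested were called, 16.2% higher and 18% lower in blood (edgeR's quasi-likelihood test, Benjamini-Hochberg adjusted p under 0.05). In the Atg5-knockout mice the same 4 genes were higher, and Bcl2 and Bid were lower, where 47.6% of the 13853 genes tested were called, 23.5% higher and 24.1% lower. The libraries of the tissues did not overlap for 6 of the 10 genes in control mice (5 higher and 1 lower in blood) and for 8 in Atg5-knockout mice (6 higher, 2 lower), beside 50.1% and 59.9% of all genes tested. The median log2 difference of the 10 genes, blood minus bone marrow, was 0.55 in control and 0.35 in Atg5-knockout mice, beside -0.0029 and -0.010 over all genes tested. Scaling by library size alone moved the median of all genes in control mice to -0.31 and the calls from 2213 higher and 2466 lower to 1306 and 3910, and in Atg5-knockout mice to -0.24 with 2254 higher and 4342 lower in place of 3256 and 3336. All differences below are on the TMM scale.

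Of the pro-survival genes, Mcl1 had 825, 877 and 897 CPM in the 3 control bone marrow libraries and 1416, 2583 and 1597 in control blood. Every blood library was above every bone marrow library, and the log2 difference was 1.09 (SE 0.24, 2.14-fold, edgeR adjusted p = 0.00847). In Atg5-knockout mice Mcl1 rose from 704, 675 and 885 CPM to 1973, 2439.8 and 2794, a difference of 1.69 (SE 0.18, 3.22-fold, edgeR adjusted p = 0.000109), again without overlap. Mcl1 was called in both genotypes whichever single library was left out, and without control blood replicate 1 its difference in control mice was 1.26.

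Bcl2a1b had 19, 31 and 24.5 CPM in control bone marrow and 33.3, 76.5 and 70.4 in control blood, and Bcl2a1d had 24.1, 40.9 and 30.1 and 43.5, 95.6 and 100.2. For both genes control blood replicate 1 was the lowest blood library, yet it lay above the highest bone marrow library. The log2 differences were 1.26 (SE 0.32, edgeR adjusted p = 0.0152) and 1.32 (SE 0.33, adjusted p = 0.0142). Without control blood replicate 1 they were 1.56 and 1.62 (edgeR adjusted p = 0.000285 and 0.000261). Both calls were lost without control bone marrow replicate 1 (adjusted p = 0.0705 and 0.0676) or replicate 3 (0.0632 for each), and that of Bcl2a1b also without control blood replicate 2 (0.0525). In Atg5-knockout mice the step was from 15.9, 10.2 and 18.1 CPM to 42.1, 70.3 and 112 for Bcl2a1b and from 17.1, 10.4 and 19 to 47.1, 75.1 and 108 for Bcl2a1d. The groups did not overlap, and the differences of 2.36 (SE 0.35, 5.12-fold, edgeR adjusted p = 0.000687) and 2.32 (SE 0.32, 5.0-fold, adjusted p = 0.000471) were called whichever single library was left out. Summed over the 4 Bcl2a1 genes, the difference was 1.03 (SE 0.30, edgeR adjusted p = 0.0267) in control and 1.80 (SE 0.28, adjusted p = 0.000914) in Atg5-knockout mice.

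Bcl2 went the other way. It had 27, 27.1 and 32.4 CPM in control bone marrow and 25.3, 15.4 and 18 in control blood, without overlap, and a log2 difference of -0.57 (SE 0.22) that did not pass the threshold (edgeR adjusted p = 0.0715). Without control blood replicate 1, its highest blood library, the difference was -0.80 (edgeR adjusted p = 0.00617). In Atg5-knockout mice Bcl2 fell from 31.2, 33.2 and 37.6 CPM to 27.3, 15.6 and 22.7, a difference of -0.62 (SE 0.21, edgeR adjusted p = 0.0334), and this call held only when Atg5-knockout blood replicate 1 was the library left out, with adjusted p from 0.0516 to 0.116 without any 1 of the other 5. Beside these values, the B cell list took 0.139, 0.0408 and 0.0218% of counts in control blood and 0.290, 0.0551 and 0.0410% in Atg5-knockout blood, and the T cell list 0.0185, 0.00310 and 0.00217% and 0.0321, 0.00496 and 0.00369%. Replicate 1 was the highest blood library of each genotype for both lists as well as for Bcl2, and their part in its values was not tested. Bcl2l1 overlapped between the tissues in both genotypes, with differences of 0.29 (SE 0.21) in control and -0.29 (SE 0.17) in Atg5-knockout mice, neither past the threshold. Without control blood replicate 1 the difference in control mice was 0.17 (SE 0.20). Without Atg5-knockout blood replicate 3 the difference in Atg5-knockout mice was called, Bcl2l1 then being the 1 member called lower in blood.

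**Figure D3:**
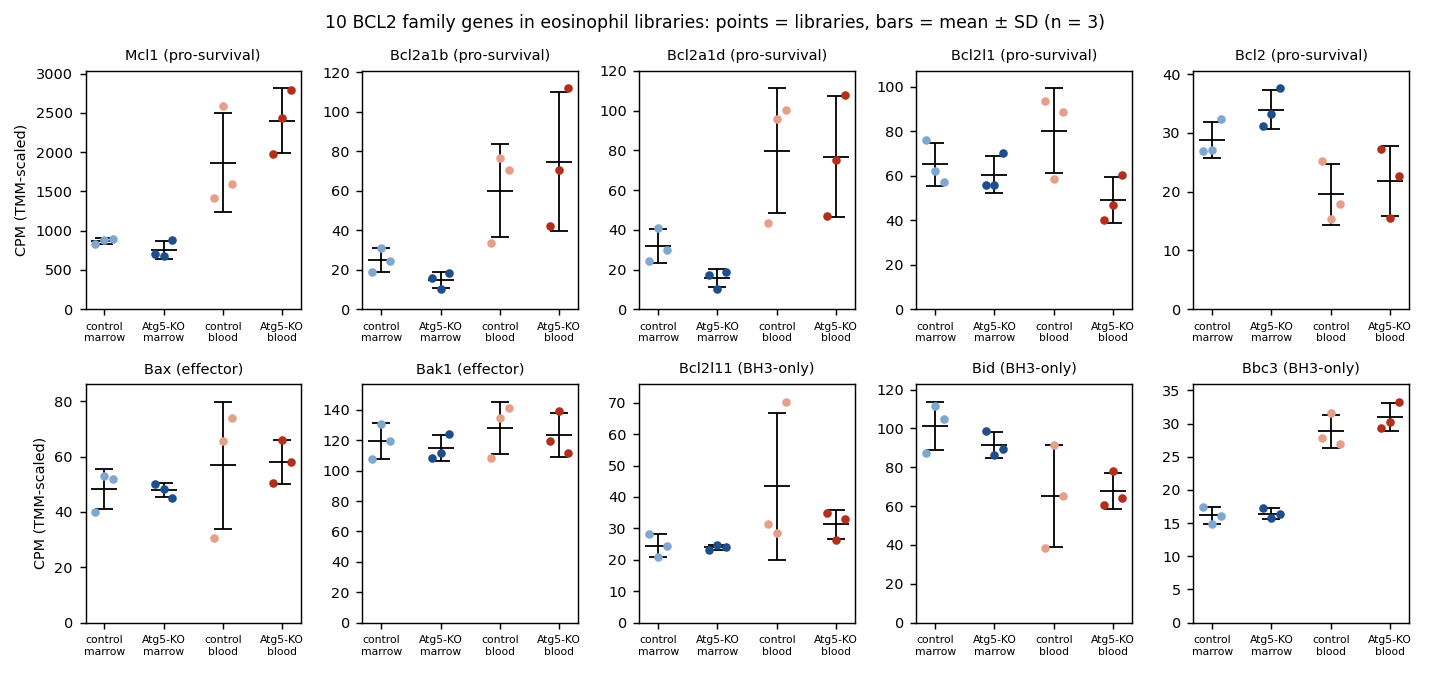
TMM-scaled CPM of each of the 10 genes in the 4 groups, on a separate axis from 0 for each gene, with 1 point for each library and the mean ± SD of 3 libraries. Mcl1, Bcl2a1b, Bcl2a1d, Bbc3 and, narrowly, Bcl2l11 are higher in every blood library than in every bone marrow library of the same genotype. Bcl2 is lower in every blood library.

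Neither effector was called between the tissues. Bak1 had 107, 131 and 119.7 CPM in control bone marrow and 109, 135 and 141 in control blood, with overlap and a log2 difference of 0.089 (SE 0.17), which was 0.20 (SE 0.15) without control blood replicate 1, and in Atg5-knockout mice the difference was 0.12 (SE 0.13). Bax had 39.8, 53 and 51.7 CPM in control bone marrow and 30.5, 65.7 and 74.1 in control blood, where replicate 1 was below all bone marrow libraries and the other two were above them. Its difference was 0.22 (SE 0.30, edgeR adjusted p = 0.597) with that library and 0.53 (SE 0.17, adjusted p = 0.0331) without it. In Atg5-knockout mice Bax went from 50.03, 48.4 and 45.1 CPM to 50.3, 65.9 and 57.9, the lowest blood library lying just above the highest of bone marrow, and the difference of 0.29 (SE 0.13) was not called (edgeR adjusted p = 0.0998).

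Among the BH3-only genes, Bbc3, whose product PUMA binds all pro-survival members, was called in both genotypes. It had 17.5, 14.9 and 16.1 CPM in control bone marrow and 27.9, 31.7 and 26.9 in control blood, and 17.3, 15.7 and 16.3 and 29.4, 30.3 and 33.3 in Atg5-knockout mice, so that all 6 blood libraries were above all 6 of bone marrow. The log2 differences were 0.82 (SE 0.17, edgeR adjusted p = 0.00665) and 0.93 (SE 0.14, adjusted p = 0.000654), and both were called whichever single library was left out. Bcl2l11 had 28.2, 20.8 and 24.4 CPM in control bone marrow and 31.5, 28.4 and 70.4 in control blood, where replicate 3 was more than 2 times each of the others. Its difference of 0.81 (SE 0.33) did not pass the threshold (edgeR adjusted p = 0.0889) although the groups did not overlap, and it passed without control blood replicate 1 (1.0, adjusted p = 0.0265) or without control blood replicate 2 (adjusted p = 0.0468). In Atg5-knockout mice it was 0.40 (SE 0.15, edgeR adjusted p = 0.0504), at the threshold, and the groups did not overlap there either. Bid, which caspase-8 cleaves to carry the death receptor signal to the mitochondrion, had 87.5, 112 and 105 CPM in control bone marrow and 38.7, 91.4 and 65.3 in control blood, with overlap and a difference of -0.65 (SE 0.28, edgeR adjusted p = 0.108). This difference was -0.38 (edgeR adjusted p = 0.132) without control blood replicate 1, the lowest library, and -0.97 (adjusted p = 0.0276) without replicate 2, the highest. With the replicate number as a block it was called in control mice (edgeR adjusted p = 0.0199). In Atg5-knockout mice it fell from 98.7, 86.1 and 89.5 CPM to 60.5, 78.3 and 64.3, a difference of -0.42 (SE 0.13, edgeR adjusted p = 0.0292). The call was lost with the block (adjusted p = 0.0564), and it held only when Atg5-knockout blood replicate 2 was the library left out, with adjusted p from 0.0508 to 0.107 without any 1 of the other 5. Bid shares 628 exon bases with Bcl2l13 on the opposite strand, and as no strand option was used, reads there were counted for neither gene.

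Loss of Atg5 was compared with control separately in each tissue, the contrast for which the series was made. In bone marrow 0 of the 10 genes were called, beside 0.348% of the 13781 genes tested (48 genes, 1333 at an unadjusted p under 0.05), while DESeq2 called 2, Bcl2a1b and Bcl2a1d, both lower in knockout eosinophils, beside 1.42% of all genes it tested called and 0.987% called lower. The same 2 were the members at an unadjusted p under 0.05 by edgeR. These were also the 2 genes whose libraries did not overlap between the genotypes, against 14.2% of all genes tested. Bcl2a1b had 19, 31 and 24.5 CPM in control and 15.9, 10.2 and 18.1 in Atg5-knockout bone marrow, and Bcl2a1d 24.1, 40.9 and 30.1 and 17.1, 10.4 and 19. All 3 control libraries lay above all 3 knockout libraries, but for Bcl2a1b the lowest of the control libraries, replicate 1, was close to the highest of the knockout libraries, replicate 3. The log2 differences were -0.78 (SE 0.22, 1.72-fold lower) with an unadjusted p of 0.00367 and an edgeR adjusted p of 0.223, and -1.06 (SE 0.23, 2.09-fold lower) with an unadjusted p of 0.000550 and an adjusted p of 0.0937. DESeq2 gave adjusted p = 0.0234 and 0.000293. Without control bone marrow replicate 1 edgeR called both as well (adjusted p = 0.0435 and 0.0183), in a fit that called 219 genes in all, and without any other single library neither was called. The copy Bcl2a1a had 60.6, 75.4 and 67.7 CPM in control and 52.8, 37.4 and 55.4 in knockout bone marrow, with a difference of -0.51 (SE 0.15, edgeR adjusted p = 0.249). Summed over the 4 copies the difference was -0.69 (SE 0.18, unadjusted p = 0.00201, edgeR adjusted p = 0.173). Beside these values, the markers of proliferating cells held 0.147 to 0.172% of counts in control and 0.179 to 0.221% in Atg5-knockout bone marrow without overlap, and their part in the difference was not tested.

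The other 8 genes differed by between -0.23 and 0.21 on the log2 scale in bone marrow, and their libraries overlapped. Mcl1 had 825, 877 and 897 CPM in control and 704, 675 and 885 in Atg5-knockout bone marrow, where 2 knockout libraries lay below and 1 within the range of the controls (-0.23, SE 0.12, edgeR adjusted p = 0.583). For Bax, Bak1, Bcl2l11 and Bbc3 the difference was smaller than its standard error, at -0.041 (SE 0.13), -0.085 (SE 0.11), -0.064 (SE 0.12) and -0.0033 (SE 0.12). Bid, Bcl2l1 and Bcl2 differed by -0.18 (SE 0.12), -0.13 (SE 0.13) and 0.21 (SE 0.12).

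In blood 0 of the 10 genes were called in Atg5-knockout eosinophils and the libraries of 0 of 10 were apart, beside 0.0371% called (5 genes, 348 at an unadjusted p under 0.05) and 7.49% not overlapping among the 13460 genes tested, and DESeq2 called 0 of the 10 as well, beside 0.164% of all genes. With the replicate number as a block, 10 genes were called over the whole table and still 0 of the 10 members. The block treats blood libraries of like number as pairs, which no label states. The gene of lowest p was Bcl2l1, the 1 member at an unadjusted p under 0.05, with 93.6, 58.4 and 88.9 CPM in control and 40.1, 46.7 and 60.4 in Atg5-knockout blood. As groups they overlapped at the second control library, and within the pairs of like number the knockout library was the lower in 3 of 3. The log2 difference was -0.69 (SE 0.24, unadjusted p = 0.0196, edgeR adjusted p = 1.0), or -0.68 with the block (SE 0.19, adjusted p = 0.461), and it was -0.57 (SE 0.25) without control blood replicate 1. Mcl1 had 1416, 2583 and 1597 CPM in control and 1973, 2439.8 and 2794 in knockout blood (0.38, SE 0.27), and the highest control library exceeded 2 of the 3 knockout libraries. Bcl2a1b differed by 0.34 (SE 0.40) and Bcl2a1d by -0.035 (SE 0.37), with libraries between 43.5 and 108 CPM for Bcl2a1d in both genotypes. The remaining 6 genes differed by -0.45 (SE 0.34) for Bcl2l11 to 0.18 (SE 0.28) for Bcl2. Without control blood replicate 1 the differences were 0.22 for Mcl1, 0.045 for Bcl2a1b, -0.33 for Bcl2a1d, 0.41 for Bcl2 and -0.25 for Bax, and lay between -0.64 (Bcl2l11) and 0.10 (Bbc3) for the other 4 beside Bcl2l1, with 0 of the 10 called by edgeR. Blood libraries spread more than bone marrow libraries, with a biological coefficient of variation of 0.365 against 0.146. The blood value includes control blood replicate 1, the library rich in red cell genes, and is not given without it.

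Whether the effect of the genotype differed between the tissues was tested as an interaction over all 12 libraries. None of the 14712 genes was called by edgeR (740 at an unadjusted p under 0.05), and DESeq2 called 15 (0.102%), of which 0 were among the 10, and 0 of the 10 had an unadjusted p under 0.05. The difference of the knockout effects, blood minus bone marrow, was 1.07 (SE 0.51, unadjusted p = 0.0583) for Bcl2a1b, 0.97 (SE 0.50, unadjusted p = 0.0721) for Bcl2a1d, 0.56 (SE 0.30, unadjusted p = 0.0852) for Mcl1 and -0.60 (SE 0.29, unadjusted p = 0.0566) for Bcl2l1, by edgeR, and each had an adjusted p = 0.942. For the other 6 genes it lay between -0.44 and 0.20. The larger rise of both Bcl2a1 genes from bone marrow to blood in Atg5-knockout than in control mice is thus not shown to be a difference between the genotypes.

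**Figure D4:**
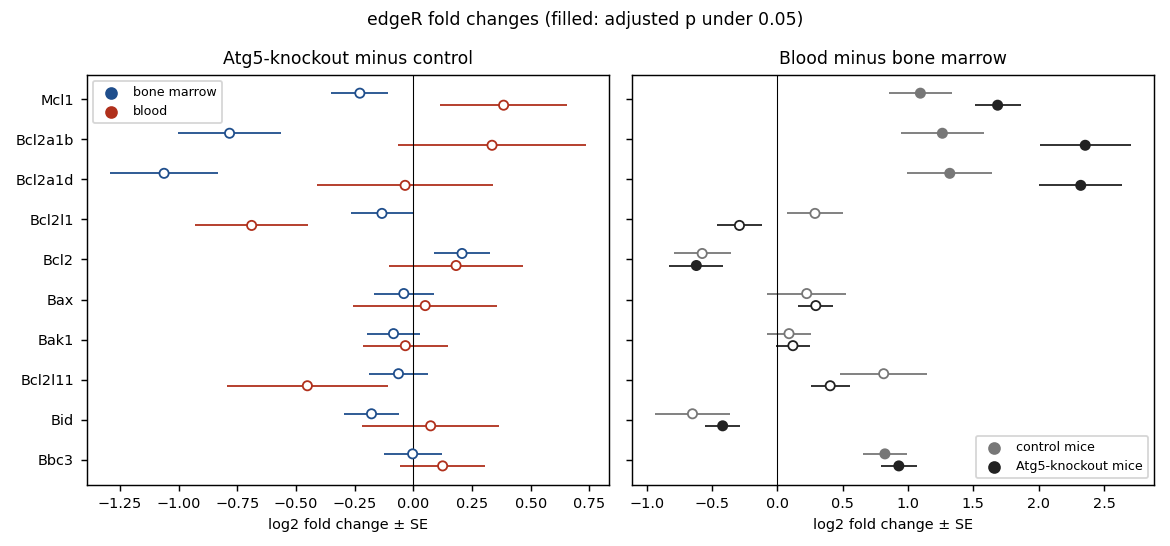
Log2 fold change ± SE of each of the 10 genes from edgeR, for Atg5-knockout minus control in each tissue (left) and blood minus bone marrow in each genotype (right), with filled points at an adjusted p under 0.05. No point is filled on the left, whereas 4 are filled for control and 6 for Atg5-knockout mice on the right.

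The family has further genes, and 16 of them were listed beside the 10. Of these, 11 were tested in the tissue comparison of control mice, where 2 rose and 2 fell in blood, beside 16.2% and 18% of all genes, and Hrk and Bcl2l10 had no count in any library. Pmaip1, whose product NOXA binds MCL1 and A1, rose most. It had 22.7, 34.1 and 32.6 CPM in control bone marrow and 260.1, 286 and 425 in control blood, and 22.1, 24.6 and 27.4 and 236, 352 and 729 in Atg5-knockout mice. All 6 blood libraries lay above all 6 of bone marrow, and the log2 differences were 3.43 (SE 0.26, edgeR adjusted p = 3.51e-05) and 4.16 (SE 0.39, adjusted p = 5.97e-05). Bmf, another BH3-only gene, had 11.4, 7.52 and 9.57 CPM in control bone marrow and 32.9, 15.5 and 22.1 in control blood (1.29, SE 0.30, edgeR adjusted p = 0.0106). Bnip3, a mitophagy receptor, fell from 21.8, 17 and 18.7 to 10.4, 11.6 and 9.77 CPM (-0.87, SE 0.20, edgeR adjusted p = 0.00950), and Bcl2l14 fell from 17, 21 and 18 counts to 2, 5 and 1 (-2.23, SE 0.67, adjusted p = 0.0311). In Atg5-knockout mice 4 of the 11 rose and 3 fell, beside 23.5% and 24.1% of all genes. The counts of the lists that follow stand against the same shares. Between the genotypes 0 of the 11 in bone marrow and 0 of the 10 tested in blood were called by edgeR or DESeq2 (1 and 0 at an unadjusted p under 0.05), the lowest p belonging to Bcl2a1a in bone marrow and to Bnip3l in blood (-0.66, SE 0.39, edgeR adjusted p = 1.0). Bnip3l, which red cell precursors also use to clear mitochondria, had 422, 143 and 161 CPM in control blood, the high value being that of the library rich in red cell genes, and without that library its difference was 0.0075.

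**Figure D5:**
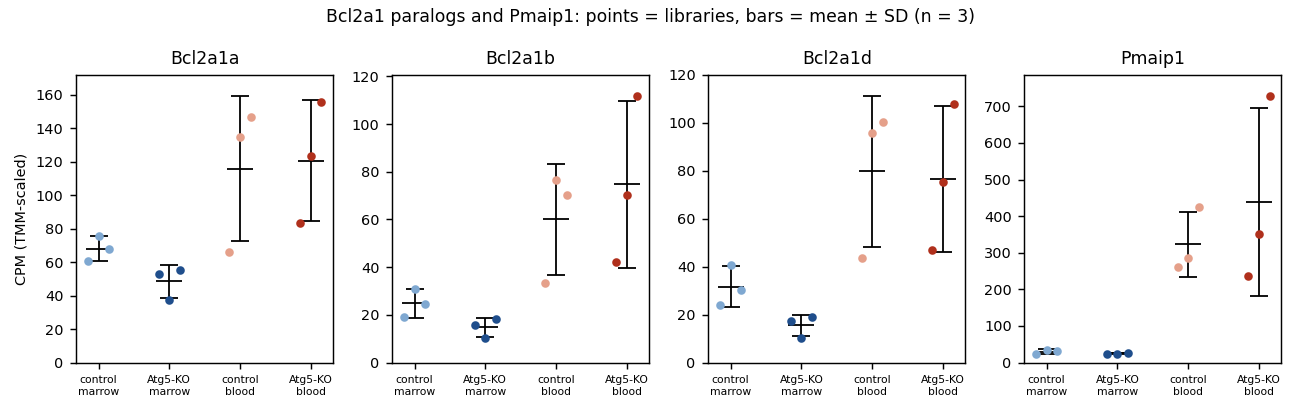
TMM-scaled CPM of the 3 Bcl2a1 copies and of Pmaip1 in the 4 groups, on axes that start at 0, with 1 point for each library and the mean ± SD of 3 libraries. The mean of each copy is lowest in Atg5-knockout bone marrow and higher in both blood groups than in both bone marrow groups, and Pmaip1 is at most 34.1 CPM in the bone marrow libraries and at least 236 CPM in the blood libraries.

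Of 20 genes of the caspase and mitochondrial steps, all tested, 4 rose and 5 fell in blood of control mice, and 5 rose and 6 fell in that of Atg5-knockout mice. Birc5, which encodes survivin and is made by dividing cells, fell from 116, 136 and 117 CPM in control bone marrow to 5.06, 4.79 and 5.89 in control blood, a log2 difference of -4.56 (SE 0.19, edgeR adjusted p = 4.76e-06), alongside the markers of proliferating cells. Casp2, an initiator caspase, fell as well (-0.96, SE 0.17, adjusted p = 0.00277). Birc3, an inhibitor of apoptosis that also acts in NF-kappaB signalling, rose from 72.2, 73.6 and 75.5 to 133, 160.0 and 219.7 CPM (1.20, SE 0.20, edgeR adjusted p = 0.00236). The median over the 20 was 0.022 in control mice. Between the genotypes 0 of the 20 were called in either tissue by edgeR or DESeq2 (1 in each tissue at an unadjusted p under 0.05), and the lowest p belonged to Birc2 in bone marrow (-0.24, SE 0.11, edgeR adjusted p = 0.513) and to Endog in blood (-1.66, SE 0.63, adjusted p = 1.0), the latter with at most 40 counts per blood library.

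Of 8 genes of death receptors and their adaptors, 1 fell and 0 rose in blood of control mice. This was Fadd, the adaptor that links the receptors to caspase-8, with 15.1, 18.5 and 17.1 CPM in bone marrow and 4.27, 11.7 and 6.63 in blood (-1.17, SE 0.35, edgeR adjusted p = 0.0295). In Atg5-knockout mice 1 of the 8 rose and 4 fell. Between the genotypes 0 were called by edgeR or DESeq2 (3 in bone marrow and 1 in blood at an unadjusted p under 0.05), with the lowest p for Tnfrsf1a in bone marrow (0.31, SE 0.11, edgeR adjusted p = 0.397) and Tnfrsf10b in blood (-1.34, SE 0.49, adjusted p = 1.0).

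Among 18 listed regulators of BCL2 family genes and proteins, 17 were tested, and 8 rose and 2 fell in blood of control mice, with a median of 0.53. Pim1, a kinase gene induced by cytokine receptors through STAT5, rose from 377, 355 and 382 CPM to 2400.0, 1987 and 1640.3 (2.42, SE 0.19, edgeR adjusted p = 4.79e-05). Fbxw7, whose product marks MCL1 for destruction, rose from 32.2, 58.5 and 40.7 to 86, 90.7 and 169 CPM (1.38, SE 0.31, edgeR adjusted p = 0.00958). The genes that fell were E2f1, a cell cycle regulator, from 37.3, 38.5 and 37.8 to 15.6, 17.6 and 12.9 CPM (-1.31, SE 0.18, edgeR adjusted p = 0.000875), and Trp53, the gene of p53, which is known to induce Bbc3, Pmaip1 and Bax, from 80.2, 66.9 and 72.8 to 46.1, 44.6 and 39.4 CPM (-0.77, SE 0.16, adjusted p = 0.00574). In Atg5-knockout mice 7 of the 17 rose and 3 fell. Between the genotypes 0 of the 17 were called by edgeR in either tissue (4 in bone marrow and 0 in blood at an unadjusted p under 0.05). In bone marrow the lowest p was that of Fbxw7, with 32.2, 58.5 and 40.7 CPM in control and 28.2, 25.9 and 29.9 in Atg5-knockout libraries (-0.67, SE 0.19, edgeR adjusted p = 0.215), which DESeq2 called (adjusted p = 0.0234), and in blood that of Usp9x (-0.64, SE 0.38, adjusted p = 1.0).

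The genes most like a member over the 12 libraries were sought for Bcl2a1d, Bcl2a1b and Mcl1, the 3 members with the largest tissue difference in control mice, by the root mean square difference of log2 CPM centred for each gene, over 14712 genes. Bcl2a1b and Bcl2a1d were nearest to each other at 0.17, and the next for both was ENSMUSG00000097514, at 0.24 from Bcl2a1b and 0.27 from Bcl2a1d. For Mcl1 the nearest were Otub2 at 0.11 and Mad2l1bp at 0.15. The values of Mcl1 itself lay 0.74 around their mean on the same measure, and those of Bcl2a1b and Bcl2a1d 1.02 and 1.05. All points share the same 12 libraries, so this is a description only.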

How the data were processed

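Eosinophils of bone marrow and blood were analysed as 12 libraries, grouped by the labels into 4 groups of 3. According to the study's methods, stranded mRNA libraries were read as 100-base single ends, and HISAT2 2.2.1 and featureCounts were used. The deposited values are raw counts for each gene as the authors obtained them, neither normalized nor filtered, beside each gene's exon length. The file header gives featureCounts 2.0.1 with Ensembl release 92 on GRCm38 and no option for strand, overlapping genes or multiple hits, whereas the methods give a GRCm39 annotation, and coordinates here are those of the table. An option for paired ends is also in the header. No read was realigned. Blood and bone marrow came from the same mice, but nothing in the sources used here ties the replicate numbers to mice, so the tissue comparisons treat the libraries as independent, and p-values measure the spread between these libraries.

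Symbols came from GENCODE M39, which matched 49674 identifiers and left 4127 unmatched, and 26487 of the genes had a count. No per-sample column was left unassigned. Counts were tested with edgeR 4.0.16 in R 4.3.3 (quasi-likelihood test, TMM, filterByExpr with minimum count 10 and total 15, prior count 0.125, Benjamini-Hochberg over all genes tested), each comparison on its own 6 libraries and the interaction on all 12, and called at an adjusted p under 0.05. The standard error is the log2 fold change divided by the square root of F. CPM values use TMM factors over the 12 libraries, and the TPM values were computed from the counts and exon lengths. Fewer genes also passed a log2 fold change of 2, the study's second threshold: 13 in bone marrow, 5 in blood, 1308 and 1578 between the tissues of control and Atg5-knockout mice. Alternatives were DESeq2 1.42.0, all 12 libraries, other scalings and filters, library sizes without red cell and platelet genes, a replicate block and leaving out each library. The edgeR step was tested on simulated data. Deviations from the group means correlated at 0.50, 0.21 and 0.30 between blood libraries of the same number in the 2 genotypes. With another number the highest correlations were -0.28, 0.14 and 0.12. No label ties these libraries to each other, so treating them as pairs rests on the same data. The members and lists were chosen with earlier results of these data known. Named beside the 10 genes and Atg5 were, of each further list, the called genes or else that of lowest p between the genotypes, and the 2 of largest change in each direction between the tissues of control mice. Hrk, Bcl2l10, Gm29094 and Bcl2l13 were named after their values were seen. A gene that this rule names is not reported here. Protein levels were not analysed here.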

Additional observations from a re-analysis of the deposited data

How the results depend on the processing

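The number of the 10 genes called in the tissue comparison of control mice was 7 without a filter on low counts, where it was 4 with it, and it ran from 2 (without control bone marrow replicate 1 or 3) to 7 (without control blood replicate 1) when 1 library was left out. In Atg5-knockout mice it stayed between 4 and 7, where it was 6. For the knockout effect in bone marrow it was 2 with DESeq2 and 2 without a filter, and 0 to 2 when 1 library was left out, where it was 0. In blood and for the interaction it was 0 in every alternative. No called difference changed its sign in any alternative, and those that did were not called. With library size alone the sign turned for Bbc3 in bone marrow (0.026), Bcl2a1d (0.023) and Bak1 (0.057) in knockout blood, Bcl2l1 (-0.027), Bax (-0.085) and Bak1 (-0.22) between the tissues of control mice, Bak1 between those of Atg5-knockout mice (-0.11) and Bcl2 in the interaction (0.054). With all 12 libraries Bbc3 in bone marrow was 0.026, without a filter Bak1 in the interaction was -0.022, and the sum of the Bcl2a1 copies, chosen after seeing the data, stood at 0.11 in knockout blood, against -0.035 for Bcl2a1d. Leaving out 1 library at a time, the knockout effect in bone marrow ranged over -0.17 to 0.041 for Bax, -0.16 to 0.043 for Bcl2l11, -0.052 to 0.051 for Bbc3. In blood it ranged over -0.019 to 0.41 for Bcl2, -0.086 to 0.61 for Bcl2a1b, -0.37 to 0.21 for Bcl2a1d, -0.25 to 0.29 for Bax, -0.14 to 0.043 for Bak1, -0.69 to 0.086 for Bcl2l11, -0.19 to 0.40 for Bid, -0.93 to 0.0075 for Bnip3l. The tissue difference of Bax in control mice ranged over -0.0012 to 0.53, and the interaction over -0.24 to 0.15 for Bcl2, -0.26 to 0.27 for Bax, -0.11 to 0.072 for Bak1, -0.67 to 0.096 for Bcl2l11, -0.067 to 0.52 for Bid. Over the whole table, the 48 genes called in bone marrow became 196 with DESeq2, 12 with all 12 libraries, 420 without a filter, 23 with a replicate block, and 18 to 219 without 1 library. The 5 in blood became 22, 16, 77, 10 and 2 to 6 in the same order. The 4679 of the tissue comparison in control mice ran from 2627 (without control bone marrow replicate 3) to 5926 (without control blood replicate 1), and the 0 of the interaction became 15 with DESeq2 and 119 without a filter. The causes were not tested. With the replicate block the 10 genes gave 0 calls in bone marrow, in blood and in the interaction, 5 in place of 4 between the tissues of control mice (Bid added, adjusted p = 0.0199) and 5 in place of 6 in Atg5-knockout mice (Bid lost, 0.0564), where blood and bone marrow come from the same mice but no source says which numbers share a mouse, and deviations of like numbers correlated between -0.15 and 0.13 there and in bone marrow. The lowest count of the 10 genes in a library was 324.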

Other observations

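The split of counts among the Bcl2a1 copies was not the same in the 4 groups. Bcl2a1a took 51.2 to 58.4% of the summed Bcl2a1 counts in control bone marrow and 59.8 to 64.5% in Atg5-knockout bone marrow, without overlap, and 43.9 to 46.3% and 41.4 to 48.2% in control and Atg5-knockout blood. The mean share of Bcl2a1d was 25.2% in control and 19.5% in Atg5-knockout bone marrow, and 31% and 28% in blood. The summed level of the copies was 124 ± 21.9 CPM (SD, n = 3) in control and 78.8 ± 18.3 in Atg5-knockout bone marrow, and 256 ± 97.7 and 272 ± 102 in blood. The shares rest on the reads that could be placed on 1 copy, and how far that selection sets them was not tested.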
